A study of Arabidopsis thaliana with 18 samples.

Results

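Open flowers of the AtLEJ1 overexpressor were set directly against open flowers of the lej1 mutant in Arabidopsis thaliana, so that the gain and the loss of the gene were compared with each other rather than each with wild type. The comparison used the 3 arrays of the overexpressor (OE) and the 3 arrays of the mutant (KO) whose titles name open flowers, 6 of the 18 arrays of the series. The OE plants were the line 35S:AtLEJ1/5-8, in which the constitutive 35S promoter of cauliflower mosaic virus drives AtLEJ1, and the KO plants were the atlej1 mutant. Wild type (WT) open flowers and unopened buds of all 3 genotypes, again 3 arrays a group, served for context. Open flowers were of floral stages 13 to 14 and buds of stages 1 to 12, all from plants 5 weeks old, with 5 µg of total RNA labelled for each ATH1 array. The labels describe 1 overexpressing line and 1 mutant, so a line and its genotype cannot be told apart. Titles and source names gave genotype and stage. The description field was set aside: it names wild type and unopened flowers for all 18 samples, against the titles of 15.

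LEJ1 belongs to the small plastid proteins made of a pair of CBS domains. These proteins bind and activate thioredoxins, which reduce disulphide bonds in target enzymes and feed the removal of hydrogen peroxide. In flowers they are known for their part in anther opening, which needs jasmonate and a lignified wall layer in the anther. Class III peroxidases, which use hydrogen peroxide to cross-link lignin and other wall polymers, are genes of interest in this tissue. Flavonoids and anthocyanins, which colour petals and seed coats, and chitinases, which are common among defence proteins, are other products of maturing flowers. In RNA from whole flowers, fewer cells of a type and less RNA per cell cannot be told apart.

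Each array gave 1 linear intensity per probe set. The trimmed mean of the deposited intensities was between 499.84 and 499.87 on every array, so all arrays had been scaled to 1 level. Median intensity was 202 to 207 in OE open flowers, 207 to 216 in WT and 218 to 225 in KO, so OE and KO medians did not overlap. RNA integrity was read from 6 control transcripts, each with a probe set at either end, and the log2 ratio of the 3' end over the 5' end was 1.10 ± 0.11 in OE and 1.07 ± 0.09 in KO (SD, n = 3). Tests covered the 15113 of 22745 probe sets that were brighter than the 40th percentile of an array on 3 or more arrays. LEJ1 (AT4G34120) is paired with no probe set in the annotation table used here. A further 6599 tested probe sets carry no gene name, and whether any of them reads LEJ1 was not tested. The targeted transcript therefore gave no check of the OE and KO labels.

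Tapetum genes, which serve the young anther, were read beside the stage labels. A member could pass the brightness filter through buds alone, as AT1G75920 did, so their sums do not check these labels. Over the 7 tested members of the tapetum and pollen wall list, summed intensity was 31327, 20763 and 25193 in WT buds and 1121, 976 and 1188 in WT open flowers. In open flowers it was 1127, 889.88 and 679 in OE and 2541, 811 and 1440.4 in KO. The KO array of replicate 1 was the highest of the 9 open-flower arrays. Its part in the results was not tested except where values without it are given. None of the 7 members passed between OE and KO. The median log2 difference was -0.84, and ATA27, a tapetal glucosidase gene, came closest with -2.03 ± 0.62 (SE, adjusted p = 0.061). Its intensities were 221, 17.5 and 3.13 in OE and 908, 41.6 and 178 in KO, with overlap between the groups. In WT buds ATA27 read 17203, 10371 and 12863, a large part of the summed intensity there. The 10 tested mature pollen genes had a median of -0.12 and the 4 tested photosynthesis genes 0.25, with no call in either list. No gene of the floral organ identity list was tested.

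In open flowers most called differences of at least 2-fold were falls in OE. Of the 15113 probe sets, limma called 827 (5.47%) at an adjusted p under 0.05. In OE 302 were higher (2%) and 525 lower (3.47%) than in KO. At least 2-fold differences were found for 49 higher and 146 lower probe sets. The annotation names 1 gene for 417 of the 827, several for 30 and none for 380. At an unadjusted p under 0.05 there were 3489. The 3 OE and 3 KO arrays did not overlap for 724 of the 827 calls, beside 3207 (21.2%) of all tested probe sets (8.30% with OE higher and 12.9% with OE lower).

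The size of this list depended on single arrays and on the model. The fit holds the replicate number of the titles as a block, and without the block it called 230 (57 higher, 173 lower). Without the OE arrays of replicates 1, 2 and 3 in turn the count was 372, 463 and 278. Without the KO arrays of replicates 1 and 3 it was 420 and 202. Leaving out replicate 3 of every group gave 43 calls, and leaving out replicates 1 and 2 gave 438 and 275. The split by direction depended on scaling. Centring each array on its median moved the median difference of all probe sets from -0.05 to 0.06 and gave 728 higher and 292 lower, and quantile normalization gave 314 higher and 339 lower. Among differences of at least 2-fold, lower probe sets stayed in the majority, with 114 against 80 after centring and 110 against 54 after quantile normalization.

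**Figure D1:**
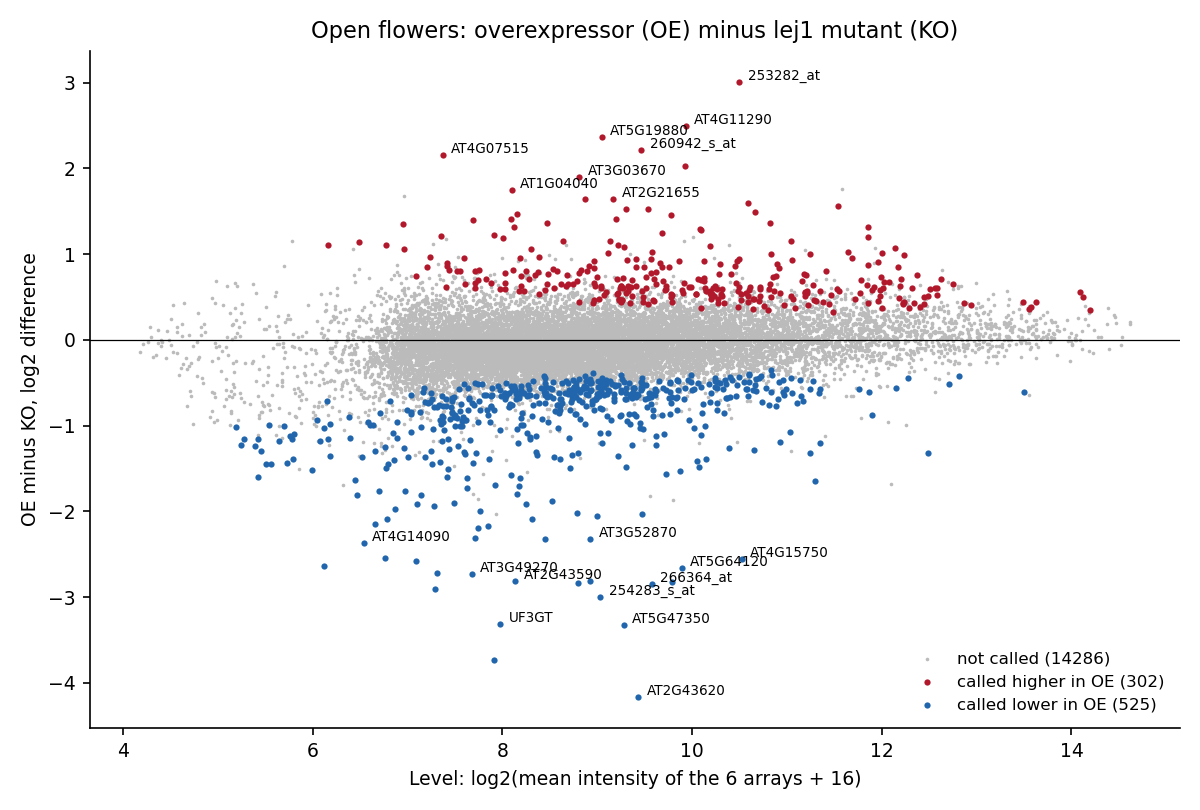
Difference between OE and KO open flowers (y axis, log2) against level (x axis, log2 of mean intensity plus 16) for 15113 probe sets. Red points were called higher in OE (302), blue points lower (525) and grey points were not called. The lower calls reach -4.17 and the higher calls 3.01.

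Several chitinase-family genes were lower in OE than in KO open flowers. Chitinases hydrolyse chitin and are a common class of defence proteins. Of 7 tested members out of 15 listed, 4 were lower, none was higher and 3 were not called. Over all tested probe sets 3.47% were lower and 2% higher. The median log2 difference of the 7 members was -1.36, beside -0.05 over all tested probe sets. The strongest was AT2G43620, with intensities of 81.5, 44.5 and 45.4 in OE and 948, 1546 and 1379 in KO. WT open flowers read 1017, 1023 and 1653. All 3 OE arrays were far below all KO and WT arrays, with a log2 difference between OE and KO of -4.17 ± 0.29 (SE, limma adjusted p = 1.0e-07). AT2G43590 read 66.9, 33.0 and 64.8 in OE against 392, 570.0 and 462 in KO, a log2 difference of -2.81 ± 0.30 (adjusted p = 3.1e-05). For CHI (AT2G43570) the OE arrays read 25.8, 86.7 and 44.7 and the KO arrays 152, 501 and 354, with -2.31 ± 0.29 (adjusted p = 2.1e-04). Its neighbour in the family AT2G43610 read 310.5, 338 and 307 against 722, 901 and 910.3, with -1.36 ± 0.17 (adjusted p = 2.3e-04). Neither of these groups overlapped. The calls of CHI and AT2G43610 ended when replicate 3 of every group was left out (adjusted p = 0.056 and 0.06). ChiC (AT4G19810) had -0.77 ± 0.24 and did not pass (adjusted p = 0.07).

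These 4 genes lie close together by locus number, and how far their probe sets read related sequences was not tested. For AT2G43620, AT2G43590 and CHI all OE arrays lay at or below the 40th percentile of their array, so the size of the difference depends on the constant added before the logarithm. For AT2G43620 it was -4.50 with a constant of 1 and -3.47 with 64.

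Several genes of flavonoid and anthocyanin synthesis were lower in OE as well. Of the 8 tested members out of 34 listed, 4 were lower, none was higher, and the median log2 difference was -1.23. Among all tested probe sets 3.47% were lower and 2% higher. DFR (AT5G42800), which encodes dihydroflavonol reductase at the entry to anthocyanins, read 88.4, 106 and 113 in OE and 593, 341 and 571 in KO. The WT arrays read 255, 482 and 596, and every OE array was below every array of the other 2 genotypes. The log2 difference between OE and KO was -2.09 ± 0.27 (adjusted p = 2.4e-04). UF3GT (AT5G54060) adds xylose to anthocyanins and had intensities of 32.9, 34.6 and 20.4 in OE and 610.4, 373 and 346 in KO, with -3.31 ± 0.36 (adjusted p = 4.5e-05). AT4G14090, the gene for the anthocyanin 5-O-glucosyltransferase UGT75C1, read 2.62, 5.89 and 27.6 in OE and 273, 81.5 and 70.3 in KO, with -2.37 ± 0.51 (adjusted p = 0.015). Its call ended without the OE array or without the KO array of replicate 1 (adjusted p = 0.068 to 0.083). It also ended without replicate 1, 2 or 3 of every group (adjusted p = 0.12, 0.072 and 0.084). For DFR, UF3GT and AT4G14090 all OE arrays lay at or below the 40th percentile, and for AT4G14090 only 1 KO array exceeded it. The size of these differences depends on the constant. With constants of 1 and 64 it was -3.71 and -1.32 for AT4G14090 and -3.86 and -2.41 for UF3GT.

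The fourth gene of the group serves the seed coat. BAN (AT1G61720) encodes anthocyanidin reductase, which makes the precursors of condensed tannins in the young seed. Its intensities were 204, 274 and 293 in OE, 506, 1562 and 1188 in WT and 1096, 767 and 1519.6 in KO. OE was the lowest group without overlap, with a log2 difference of -2.03 ± 0.30 from KO (adjusted p = 9.2e-04), a call that ended without replicate 3 of every group (adjusted p = 0.091). BAN is also 1 of the 3 tested genes of the gynoecium, ovule and young seed list. The other two, INO of the outer ovule coat and SPT of the carpel margin, had -0.36 ± 0.20 and 0.18 ± 0.12 and did not pass (adjusted p = 0.28 and 0.38). Summed over the 3 genes, intensity was 659.5, 828 and 812 in OE and 1579.7, 1327 and 2075 in KO. The part of ovule and seed tissue in these values was not tested.

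Class III peroxidases went both ways. Of 25 tested members out of 73 listed, 4 were higher and 4 lower in OE, and the median was -0.15. Among all tested probe sets 2% were higher and 3.47% lower. AT4G11290 (PER39) read 1554, 1765 and 1572 in OE, 612, 388 and 447 in WT and 439.9, 253 and 189 in KO. The OE arrays were the highest and the spread among them was small, with a log2 difference from KO of 2.49 ± 0.26 (adjusted p = 3.1e-05). The call was kept in each of 21 alternatives run. AT5G19880 (PER58) had intensities of 888, 881 and 796 in OE against 298, 113 and 102 in KO (2.37 ± 0.40, adjusted p = 0.0031). AT3G03670 (PER28) had 749.8, 714 and 578 against 294, 106 and 153 (1.90 ± 0.26, adjusted p = 3.7e-04). Both pairs of groups were apart, but both calls ended without replicate 3 of every group (adjusted p = 0.099 and 0.051), and that of PER58 also without replicate 2 (0.062). The bright PER9 (AT1G44970) read 5687, 4425 and 5324 against 3384, 2053 and 2879.7, a smaller difference of 0.91 ± 0.22 (adjusted p = 0.024).

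The lower peroxidases included AT5G64120 (PER71), whose product takes part in lignin deposition. Its intensities were 295, 229 and 208 in OE, 1446, 1287 and 1512 in WT and 1471, 1789 and 1603 in KO. OE was below both other genotypes on every array, with -2.66 ± 0.34 against KO (adjusted p = 2.4e-04). AT5G39580 (PER62) read 28.9, 22.5 and 25.7 in OE and 138, 168 and 183 in KO (-2.09 ± 0.30, adjusted p = 7.0e-04), a call that ended without replicate 3 of every group (adjusted p = 0.06). PER55 (AT5G14130) and PER49 (AT4G36430) had log2 differences of -1.76 ± 0.38 and -1.37 ± 0.28 (adjusted p = 0.014 and 0.01). Among genes of the lignin synthesis list, 3 of 24 were tested and AT5G64120 was the 1 called. In summed intensity, which rests most on bright members, the 25 peroxidases stood at 29588, 28711 and 29136 in OE and 25260, 25303 and 25643 in KO. The OE sums were above the KO sums without overlap, as were 8.30% of all tested probe sets. The median log2 difference of the list was -0.15, so the sum does not describe most members.

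**Figure D2:**
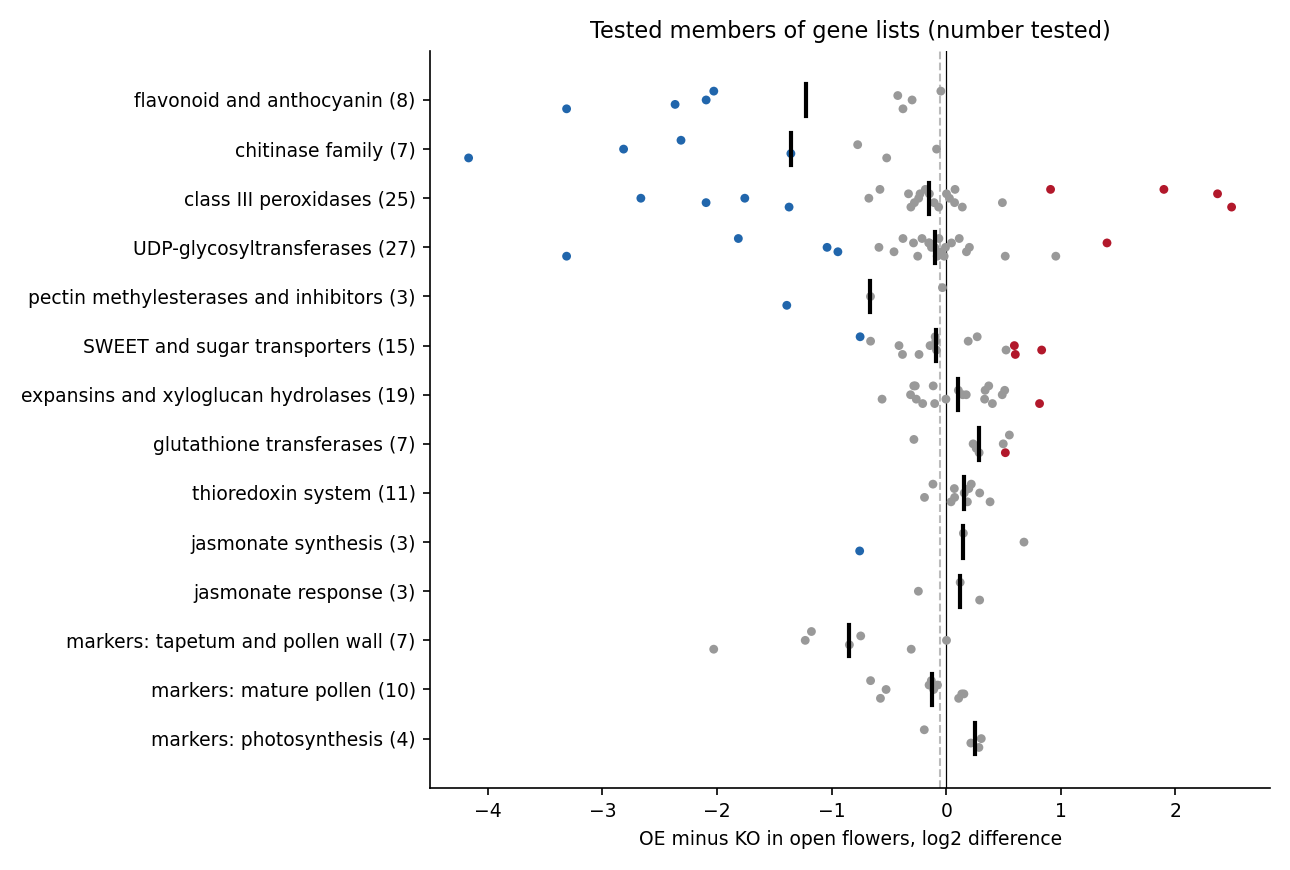
Log2 difference between OE and KO open flowers (x axis) for the tested members of 14 gene lists, with the number tested in brackets. Each point is a gene by its brightest probe set. Red points were called higher in OE, blue points lower and grey points were not called, black bars are list medians and the dashed line is the median of all tested probe sets. The flavonoid and chitinase lists have their called members to the left of 0, and the peroxidases have called members on both sides.

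Some pectin genes were called in both directions, with 3 lower and 1 higher in OE among those named here. They were named because they were called, so these counts are no share of the tested pectin genes. Over all tested probe sets 3.47% were lower and 2% higher. AT4G15750, of the family of invertase and pectin methylesterase inhibitors, read 242, 549 and 488 in OE and 2846, 1869 and 2739.9 in KO. The groups were apart, with a log2 difference of -2.55 ± 0.33 (adjusted p = 2.5e-04). AT3G10720, a pectin methylesterase gene, read 247, 190.0 and 124 against 764, 811 and 833, with -2.06 ± 0.17 (adjusted p = 1.3e-06). A member of the same enzyme family, ATPMEPCRB (AT4G02330), had 114, 109 and 109 against 289, 412 and 265 and -1.39 ± 0.21 (adjusted p = 0.001). It was 1 of 3 tested members of its symbol-based list to pass. Its OE arrays all lay at or below the 40th percentile, and its call ended without replicate 3 of every group (adjusted p = 0.06). In the other direction went ADPG1 (AT3G57510), a polygalacturonase gene of anther and pod opening, at 204, 175 and 236 in OE and 102, 79.8 and 129 in KO. Its difference of 0.90 ± 0.16 (adjusted p = 0.0046) did not pass without the block (adjusted p = 0.076). Nor did it pass without replicate 2 or 3 of every group (adjusted p = 0.062 and 0.10). XTH33, of the xyloglucan-remodelling enzymes, was the 1 of 19 tested expansin and xyloglucan genes called, near the 5.47% of all tested probe sets (0.81 ± 0.21, adjusted p = 0.035). Its call ended without any 1 of the 3 OE arrays or of the KO arrays of replicates 2 and 3 (adjusted p = 0.059 to 0.18).

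Glycosyltransferases of the UGT family, which attach sugars to hormones and phenolics, gave 4 lower and 1 higher of 27 tested, with a median of -0.10. The shares over all tested probe sets were 3.47% lower and 2% higher. The list was built from gene symbols, so AT4G14090 (UGT75C1), described above, is not among the 27. UF3GT was the largest of the lower ones. UGT84A1 (AT4G15480), which acts on hydroxycinnamates, read 71.3, 57.6 and 18.8 in OE and 195, 155 and 253 in KO, with -1.81 ± 0.30 (adjusted p = 0.0024). IAGLU (AT4G15550) conjugates the auxin indole-3-acetate with glucose and read 526, 462 and 335 against 1406, 729 and 730.0. Its groups were apart (-1.04 ± 0.17, adjusted p = 0.0018), and its call ended without the block (adjusted p = 0.17). UGT87A2 (AT2G30140) had -0.94 ± 0.19 (adjusted p = 0.0083, and 0.060 without the KO array of replicate 3). The higher member was UGT72E3 (AT5G26310), an enzyme that glucosylates lignin precursors, at 351, 241 and 245 in OE and 156, 95.9 and 53.3 in KO. Its difference of 1.40 ± 0.37 (adjusted p = 0.037) ended without any 1 of the 6 arrays (adjusted p = 0.062 to 0.18).

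A list built from gene symbols, nearly all SWEET sugar transporters, had 3 higher and 1 lower of 15 tested members. The shares over all tested probe sets were 2% higher and 3.47% lower. SWEET1, SWEET10 and SWEET3 had log2 differences of 0.60 ± 0.13, 0.59 ± 0.15 and 0.83 ± 0.22 (adjusted p = 0.011, 0.03 and 0.039). SWEET13, next to SWEET10 on the chromosome by the RefSeq gene order, had -0.75 ± 0.19 (adjusted p = 0.031). SWEET10 overlapped between the groups, at 1805, 1297 and 1152 in OE and 1613, 659 and 722 in KO. Each of these 4 calls ended when at least 3 of the 6 arrays were left out singly. For SWEET1 these were the OE arrays of replicates 1 and 3 and the KO array of replicate 3 (adjusted p = 0.054 to 0.076), and for the other three the adjusted p reached 0.15 to 0.21. Without the block the calls of SWEET10, SWEET13 and SWEET3 ended too (adjusted p = 0.32, 0.15 and 0.071).

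Hormone and regulator genes were thinly covered by the annotation. In jasmonate synthesis 3 of 21 listed genes were tested. OPCL1 (AT1G20510), a peroxisomal ligase of the pathway, was lower at 218, 303 and 286 in OE against 379, 546 and 471 in KO (-0.75 ± 0.18, adjusted p = 0.021). That call ended without the OE arrays of replicates 1 and 3 or the KO arrays of replicates 2 and 3, each left out singly (adjusted p = 0.055 to 0.092). JMT, whose product methylates jasmonate, had 0.68 ± 0.24 and did not pass (adjusted p = 0.098), and none of the 3 tested jasmonate response genes was called. WRKY53 (AT4G23810), a transcription factor of leaf senescence and defence, read 67.8, 86.0 and 59.6 in OE and 203, 295 and 166 in KO. The OE arrays were lowest, WT read 197, 228 and 185, and the difference of -1.42 ± 0.22 (adjusted p = 0.0013) was kept in every alternative in which the gene was tested. In the thioredoxin system, the partners through which CBS-domain proteins are known to act, 0 of 11 tested members passed limma, with a median of 0.16 and a range from -0.19 to 0.38. None of the 13 cytochrome P450, 9 AGAMOUS-like, 4 terpene synthesis, 3 coumarin and 3 subtilase genes tested passed either. At the 5.47% called over all tested probe sets, lists of these sizes would give few or no calls, so nothing is read from them.

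Other genes with large falls were of mixed function. AT5G47350, of the alpha/beta hydrolases, read 77.7, 99.9 and 103 in OE and 1042, 789 and 1526 in KO (-3.33 ± 0.42, adjusted p = 2.2e-04). AT3G49270 read 54.8, 21.2 and 38.4 against 396, 241 and 378 (-2.73 ± 0.34, adjusted p = 1.8e-04). In both genes every OE array was below every KO array, and both calls were kept in each of 21 alternatives run. AT1G65500 had -2.17 ± 0.39 (adjusted p = 0.0046, and 0.12 without replicate 3 of every group). LCR24, of the small cysteine-rich defensin-like proteins, had -1.17 ± 0.30 (adjusted p = 0.033). It was the 1 of 8 tested in its family called, beside 5.47% of all tested probe sets. Its call ended without the OE or the KO array of replicates 1 and 3, each left out singly (adjusted p = 0.097 to 0.15). Among probe sets without a gene name, 254283_s_at read 93.4, 87.9 and 117 in OE and 1094, 749 and 899.9 in KO (-3.00 ± 0.18, adjusted p = 2.6e-08). Probe set 266364_at read 146, 148 and 225 against 1265, 1470.3 and 1234 (-2.85 ± 0.24, adjusted p = 1.8e-06).

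Genes outside the peroxidases were also higher in OE. CES (AT1G25330), a bHLH transcription factor of brassinosteroid responses, read 2226, 2476 and 2407 in OE, 1409, 1348 and 1120.0 in WT and 860.4, 874 and 755 in KO. The 3 genotypes formed 3 separate ranges, with OE highest, WT between and KO lowest, and the OE and KO difference was 1.50 ± 0.14 (adjusted p = 4.4e-06). It passed in all 21 alternatives run. AT1G04040, of the HAD acid phosphatases, had 421, 486 and 315 in OE and 107, 128 and 91.5 in KO (1.75 ± 0.29, adjusted p = 0.0027), again a call kept throughout. OCT1 (AT1G73220), an organic cation and carnitine transporter gene, read 2335, 2502 and 1995 against 1030.4, 750.1 and 522 (1.60 ± 0.27, adjusted p = 0.0027). AT2G33850 read 3944, 5345 and 3807 against 2342, 1191 and 1082 (1.57 ± 0.23, adjusted p = 9.5e-04). These last 2 calls ended without replicate 3 of every group (adjusted p = 0.13 and 0.062).

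A further 7 genes of the 15 largest rises rested on single arrays. AT4G07515 had 2.16 ± 0.41 (adjusted p = 0.0066), and 0.060 without the OE or the KO array of replicate 3. Its call also ended without replicate 2 or 3 of every group (adjusted p = 0.089 and 0.20) and with a constant of 1. It exceeded the 40th percentile on the 3 OE open-flower arrays and on no other array. It thus passed the brightness filter only through the group where it is high, so nothing is read from its call. AT2G21655 had 1.65 ± 0.32 (adjusted p = 0.0066, and 0.051 without the OE array of replicate 3). AT5G02580 had 1.41 ± 0.27 (adjusted p = 0.0066, and 0.061 without the KO array of replicate 3). AT5G45910, of the GDSL lipases, had 1.37 ± 0.33 (adjusted p = 0.024), which ended without the OE or the KO array of replicates 2 and 3, each left out singly (adjusted p = 0.071 to 0.13). AT3G56610 and AT3G57840 had 1.53 ± 0.42 and 1.47 ± 0.38 (adjusted p = 0.041 and 0.034). Both calls ended without any 1 OE array or the KO arrays of replicates 2 and 3 (adjusted p = 0.077 to 0.17). AT1G47470 had 1.41 ± 0.35 (adjusted p = 0.029), and 0.050 to 0.14 without any 1 of the 6 arrays. Probe set 260942_s_at, unnamed here, read 834, 1222 and 1355 in OE and 388, 195 and 151 in KO (2.22 ± 0.40, adjusted p = 0.0046). Its call ended without replicate 3 of every group (adjusted p = 0.15). GSTL3, a glutathione transferase gene, had 0.52 ± 0.14 (adjusted p = 0.039). It was the 1 of 7 tested in its family called, beside 5.47% of all tested probe sets. Its call ended without any 1 OE array or the KO arrays of replicates 1 and 3 (adjusted p = 0.077 to 0.16).

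Among the probe sets named here, 2 stood apart because KO, not OE, was the genotype away from WT. They are 2 of the 5 called between KO and WT open flowers. AT3G52870, which encodes a calmodulin-binding protein with an IQ motif, read 133, 144 and 159.7 in OE, 162, 127 and 91.5 in WT and 885, 714 and 788 in KO. OE and WT overlapped and KO was above both, with -2.33 ± 0.17 for OE minus KO (adjusted p = 2.4e-07) and 2.53 ± 0.17 for KO minus WT (adjusted p = 1.5e-07). It was called in buds too, with a smaller OE minus KO difference of -0.85 ± 0.17 (adjusted p = 0.033). Probe set 253282_at, without a gene name here, had the largest rise of all, at 2303, 2981 and 2339 in OE, 2655, 3179.8 and 2985 in WT and 233, 502 and 224 in KO. KO was low and the other 2 genotypes overlapped, with 3.01 ± 0.18 for OE minus KO (adjusted p = 2.6e-08). In buds it differed by 3.33 ± 0.18 (adjusted p = 9.7e-09). OE was not above WT in open flowers (-0.22 ± 0.18 for OE minus WT, adjusted p = 0.63), while KO was below it (-3.23 ± 0.18, adjusted p = 1.6e-08). Whether this probe set reads LEJ1 was not tested. If it did, these arrays would show the low level in KO and no raised level in OE, so the OE label is unchecked.

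**Figure D3:**
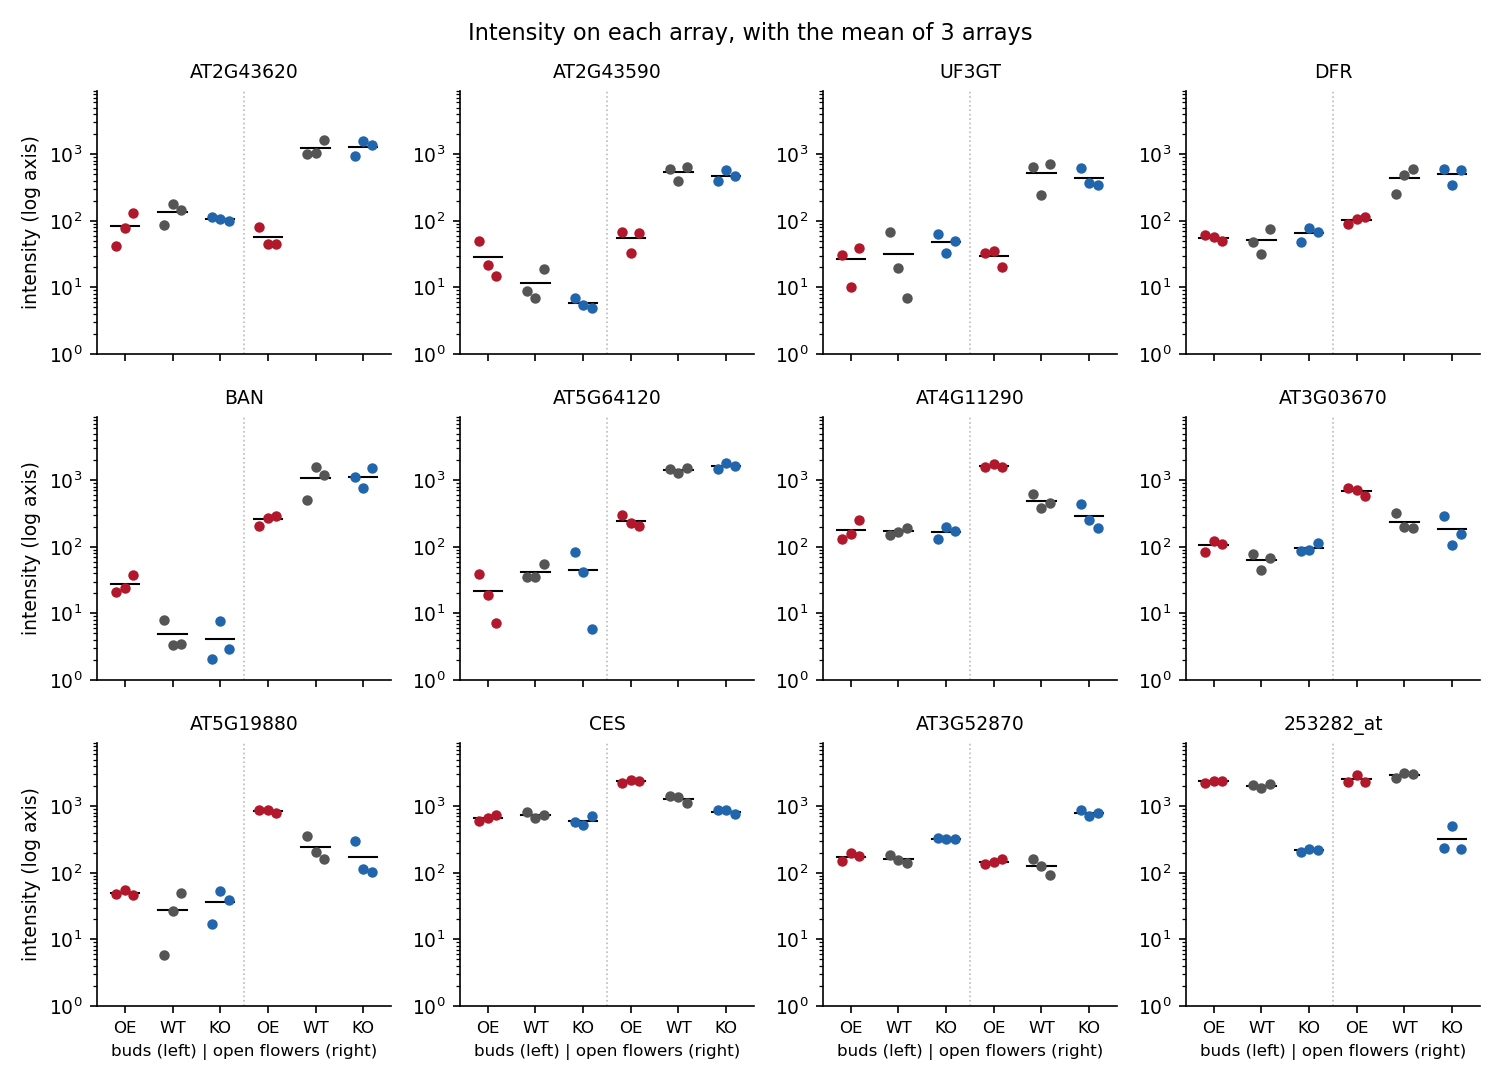
Intensity on each array (points, log axis) and the mean of 3 arrays (bars) for 12 probe sets in buds (left of the dotted line) and open flowers (right), in OE (red), WT (grey) and KO (blue). The chitinase-family genes, UF3GT, DFR, BAN and AT5G64120 are low in OE open flowers. AT4G11290, AT3G03670, AT5G19880 and CES are high in them, and AT3G52870 and 253282_at differ in KO.

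OE and KO were each set beside WT open flowers. These comparisons share arrays with the one between OE and KO, so they are set side by side and nothing is read from their overlap. Between OE and WT 236 probe sets were called (1.56%), 86 higher (0.569%) and 150 lower (0.993%), and 103 without the block. The count fell to 140, 112 and 90 without the OE arrays of replicates 1, 2 and 3, and to 104 and 88 without the WT arrays of replicates 2 and 3. Between KO and WT 5 were called (0.0331%), 4 higher (0.0265%) and 1 lower (0.00662%), with 873 at an unadjusted p under 0.05. That count was 2 without the block and 3 without the KO array of replicate 1 or 3 or the WT array of replicate 2. It was 10 without the KO array of replicate 2. For the 302 probe sets higher in OE than in KO, the median log2 difference was 0.41 for OE minus WT and -0.23 for KO minus WT. For the 525 lower ones it was -0.49 and 0.20, and over all tested probe sets -0.02 and 0.03. Choosing probe sets by OE minus KO fixes much of this order, so nothing is read from it. For AT2G43620 OE minus WT was -4.09 ± 0.29 and KO minus WT 0.08 ± 0.29, and for AT4G11290 these were 1.75 ± 0.26 and -0.74 ± 0.26.

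WT flowers themselves change between the stages, and the arrays of WT are none of those compared between OE and KO. From buds to open flowers of WT 4364 probe sets were called (28.9%), 2260 higher (15%) and 2104 lower (13.9%). Of the 146 probe sets at least 2-fold lower in OE than in KO, 80 had risen in WT (54.8%) and 38 had fallen (26%). Of the 49 at least 2-fold higher ones, 29 had risen (59.2%) and 4 had fallen (8.16%). For the remaining 28 and 16 the stage change in WT did not pass.

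The probe sets that rise in WT and were low in OE included the chitinase-family genes AT2G43620 and AT2G43590, the anthocyanin genes and PER71. Median intensity over these 80 probe sets was 54.9, 53.3 and 57.6 on the WT bud arrays and 339, 344 and 379.6 in WT open flowers. In OE open flowers it was 91.6, 101 and 111 and in KO 342, 421 and 377. OE lay between the bud level and the open-flower level of WT. Choosing probe sets that were low in OE and rise in WT fixes much of this order, so nothing is read from it. AT4G15750 rose in WT by 5.63 on the log2 scale, BAN by 5.58, AT5G64120 by 4.64, AT2G43590 by 4.34, UF3GT by 3.59 and DFR by 2.73. Of the 80 calls, 54 to 67 were kept when 1 of the 6 compared arrays was left out.

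Over the 29 probe sets that rise in WT and were high in OE, the median was 78.8, 64.4 and 67.0 in WT buds, 521, 431 and 343 in WT open flowers, 895, 1113 and 1035 in OE and 448, 274 and 224 in KO. OE was above and KO below WT on the same replicate number. Choosing probe sets by OE minus KO fixes much of this order, so nothing is read from it. Without single arrays 15 to 27 of the 29 calls were kept, the fewest without the KO array of replicate 3. AT4G11290, AT5G19880 and AT3G03670 belong here, with stage changes in WT of 1.40, 2.63 and 1.65.

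The 38 probe sets that fall in WT from buds to open flowers and were low in OE were dim in open flowers. Their median was 1544, 1342 and 1279 in WT buds, 65.2, 47.9 and 53.0 in WT open flowers, 38.9, 14.3 and 16.8 in OE and 118, 55.5 and 64.2 in KO. On every open-flower array this median was below the 40th percentile of that array (116 to 133), in KO as well. Such probe sets could pass the brightness filter through buds alone, and how many did was not counted. The KO array of replicate 1, which was also highest in tapetum genes, was the highest here, and without it 22 of the 38 calls were kept. Without the OE array of replicate 2 it was 22 as well, and without the KO array of replicate 3 it was 23.

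**Figure D4:**
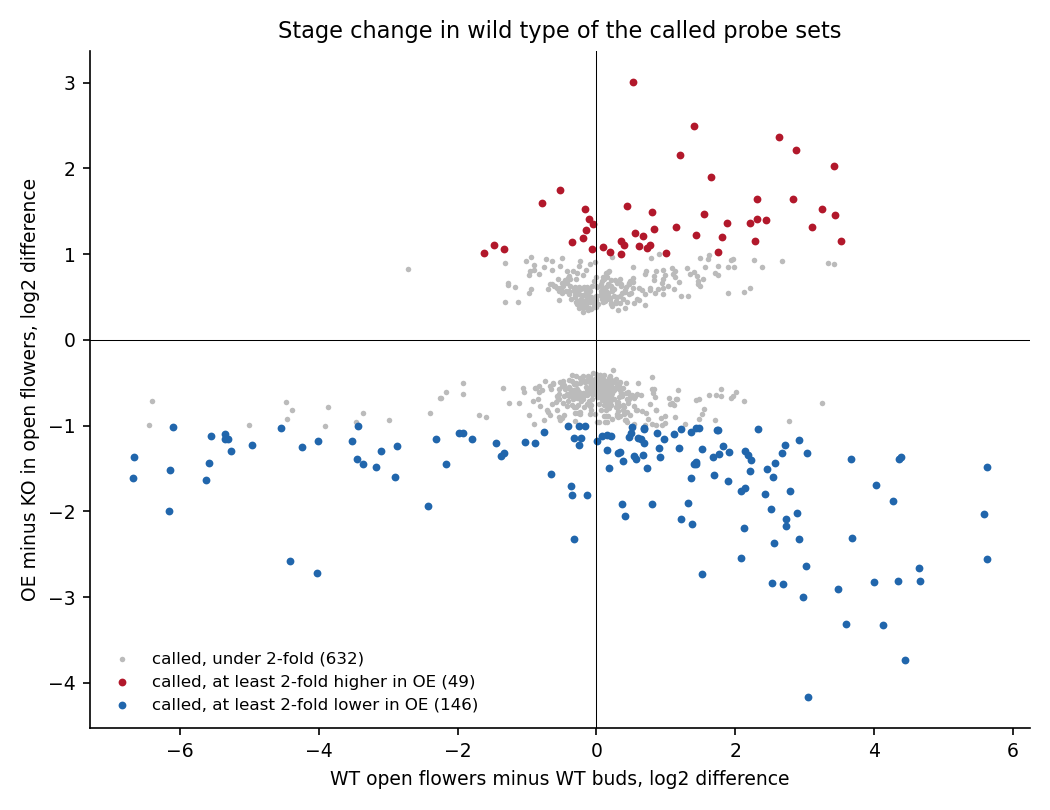
Difference between OE and KO open flowers (y axis, log2) against the change from buds to open flowers in WT (x axis, log2) for the 827 called probe sets. Red points were at least 2-fold higher in OE (49), blue points at least 2-fold lower (146), and grey points under 2-fold (632). The lowest blue points, down to -4.17, lie to the right of 0, among probe sets that rise in WT.

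In buds fewer probe sets were called between the same 2 genotypes. Between OE and KO buds 61 probe sets were called (0.404%), 7 higher (0.0463%) and 54 lower (0.357%), and 987 had an unadjusted p under 0.05. The count was 31 without the block, 27 without the OE array of replicate 1, and 29 and 33 without the KO arrays of replicates 1 and 3. Called at both stages were 9 probe sets, 1.09% of the open-flower calls and 14.8% of the bud calls, and all 9 had the same sign. AT2G43620 read 41.7, 76.8 and 132 in OE buds and 113, 108 and 98.6 in KO buds, with -0.40 ± 0.29 (adjusted p = 0.91). AT4G11290 read 129.8, 158 and 251 against 130.3, 198 and 173, with 0.06 ± 0.26 (adjusted p = 1). At this stage the groups of neither gene passed. AT2G43620 exceeded the 40th percentile on 1 OE bud array and on no KO bud array, so its bud difference could not be measured well.

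The test of the difference between stages called 132 probe sets (0.873%), 48 with a more positive (0.318%) and 84 with a more negative (0.556%) OE minus KO difference in open flowers. Of these 132, 102 were also called in open flowers. Without the block there were 40. The count was 70, 60, 57, 75, 77 and 42 without the OE open arrays of replicates 1 and 3, the KO open array of replicate 3, the OE bud array of replicate 1, and the KO bud arrays of replicates 2 and 3. AT2G43590 had the most negative value among named genes, -3.79 ± 0.42 (adjusted p = 1.3e-04), followed by AT2G43620 with -3.77 ± 0.40 (adjusted p = 1.3e-04). Both were dim in buds, where AT2G43590 exceeded the 40th percentile on no OE or KO array and AT2G43620 on 1. Their bud differences, and with them these values, could not be measured well. The pectin methylesterase gene AT3G10720 was above the 40th percentile on all arrays of both stages. It read 725, 737 and 745 in OE buds and 758, 674 and 683 in KO buds, which overlap, while in open flowers OE was below KO on every array. The difference between stages was -2.12 ± 0.24 (adjusted p = 1.6e-04). CES, also above the 40th percentile throughout, had 1.36 ± 0.19 (adjusted p = 0.0019).

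**Figure D5:**
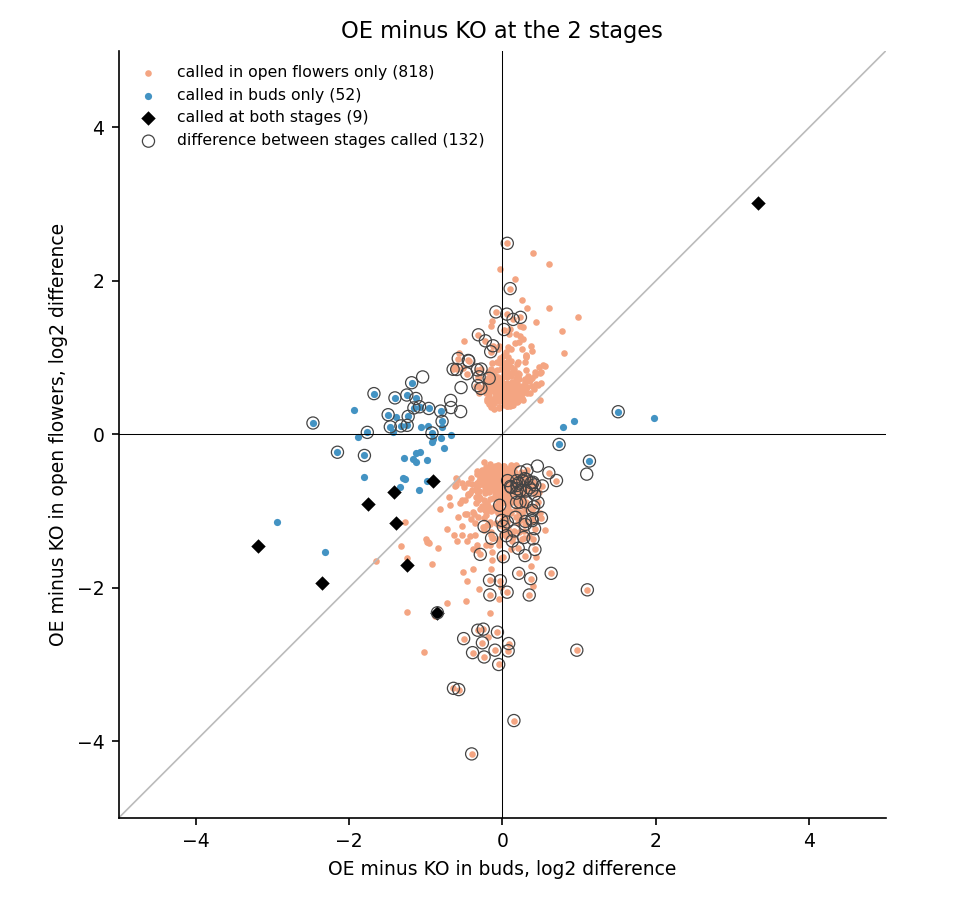
Difference between OE and KO in open flowers (y axis, log2) against that in buds (x axis, log2) for probe sets called at either stage (818 in open flowers only, 52 in buds only, 9 at both, black diamonds). Circles mark the 132 probe sets whose difference between stages was called, and the grey line marks equal differences. Most open-flower calls lie near 0 on the bud axis.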

How the data were processed

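Each sample is 1 ATH1 array hybridised with biotin-labelled cRNA. The deposited values are 1 linear intensity for each of 22810 probe sets. Which software and scaling the authors used to obtain them is not stated by the labels or the table. Here 16 was added to each intensity before the log2. Removed were 64 control probe sets, 1 with an empty cell and 7632 that failed the brightness filter (the 40th percentile of an array, passed on 3 arrays). R 4.3.3 with limma 3.58.1 and statmod 1.5.0 fitted 6 group means with the replicate number as a fixed block to all 18 arrays (10 residual degrees of freedom), with the variance prior following intensity. Benjamini-Hochberg adjustment ran over all 15113 probe sets within a comparison, and every adjusted p is from limma. Errors of log2 differences are standard errors. The constant makes differences of dim probe sets smaller. The fit was tested on simulated data. Arrays give no depth, and their number limits the precision. Plots used matplotlib 3.10.9 (Python 3.11.15).

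All groups share the replicate numbers. Same-numbered OE and KO open-flower arrays deviated from their group means with correlations of 0.12 to 0.50 across probe sets, against -0.43 to 0.26 for unlike numbers. Replicate 1 carried this contrast, at 0.50 for OE with KO and -0.43 to -0.24 with the other numbers. For replicates 2 and 3, like numbers gave 0.29 and 0.12 and unlike numbers 0.18 and 0.26. These values set replicate 1 apart and do not show that replicates 2 and 3 are pairs. No label pairs them either. The numbers were used as a block all the same, and counts without the block are given beside the results. Titles call the arrays of a group biological replicates.

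The platform annotation pairs 13513 probe sets with 1 gene, 503 with several and 8730 with none. Through Entrez numbers 13436 of the first were given a locus of the RefSeq gene table. A gene in a list is represented by the brightest probe set that names it alone. By rule the text names the 15 largest rises and falls with separate groups, up to 4 called members of a list (2 where none was called), 5 of each sign between stages, 5 of each direction in buds, and 2 unnamed probe sets a direction. Genes outside the rule were picked after their values were seen. The comparison and the lists were chosen with earlier results of these data known. Added after the files were read were the peroxidase and chitinase lists, the families built from gene symbols and the comparison of WT stages. No sequence is shown, since no sequence table or genome was used here.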

Additional observations from a re-analysis of the deposited data

Results flagged for a closer look

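The difference between OE and KO was not the same at both stages for 26 named probe sets, by the limma test of the difference between stages over all 15113 probe sets. Each value below is the log2 difference in open flowers minus that in buds. Among the chitinase-family genes it was -3.79 for AT2G43590, -3.77 for AT2G43620 and -1.22 for AT2G43610. Among flavonoid genes it was -3.14 for BAN, -2.67 for UF3GT and -1.93 for DFR. The hydroxycinnamate glucosyltransferase gene UGT84A1 had -2.03. Peroxidases had both signs, with -2.45 for AT5G39580, -2.16 for AT5G64120, 1.80 for AT3G03670 and 2.43 for AT4G11290. The pectin genes AT4G15750 and AT3G10720 had -2.23 and -2.12, and the auxin-conjugating GH3.3 had -1.51.

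Negative values were also found for AT3G49270 (-2.81), AT5G47350 (-2.76), AT3G52870 (-1.48) and the cysteine protease gene CP1 (-1.22). The unnamed probe sets 254283_s_at and 266364_at had -2.95 and -2.46. Positive values were found for CES (1.36), AT2G33850 (1.51), OCT1 (1.68), AT4G27435 (1.76), AT1G05340 (1.92) and AT1G33700 (2.62). AT1G05340, AT1G33700, AT4G27435 and CP1 differed in buds and were not called in open flowers, where their differences were -0.23, 0.15, 0.51 and 0.29. AT1G33700 exceeded the 40th percentile on no open-flower array, so its difference there could not be measured well. UF3GT, BAN, DFR, AT2G43590, AT3G49270, AT5G47350, AT4G15750, AT5G64120, AT5G39580, AT3G03670 and 254283_s_at exceeded the 40th percentile on none of the OE and KO bud arrays, so a difference in buds could not be measured well for them. AT2G43620 exceeded it on 1 OE bud array and on no KO bud array, so its bud difference could not be measured well either. Of the 10 genes named for the size of the difference between stages, AT2G43590 kept its call in every alternative. AT5G47350 lost it in 18 of 25 alternatives, AT3G03670 in 11 of 25, AT1G33700 in 7 of 24, AT1G05340 in 4 of 25, and the other five in 1 or 2. Groups of 3 arrays were too small to test a single array as an outlier, and fits without single arrays are given instead.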

How the results depend on the processing

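With the fit without the replicate block, the calls were 230 between OE and KO open flowers (827 with the block), 31 in buds (61), 40 between stages (132), 103 between OE and WT (236) and 2 between KO and WT (5). With the block as a random effect, open flowers had 671 calls, with a consensus correlation of 0.192. Leaving out arrays gave 43 to 643 calls in open flowers, 12 to 63 in buds, 6 to 147 between stages, 31 to 331 between OE and WT and 2 to 10 between KO and WT. Without the filter on dim probe sets buds had 39 calls and with the 60th percentile 29. The 5 calls between KO and WT became 2 with only the 9 open-flower arrays or with 64 added before the log2, and 3 with the 60th percentile, median centring, quantile normalization or a robust variance prior. Under the other settings open flowers had 607 to 1020 calls. Of the 827, 594 were called after centring and 560 after quantile normalization. Signs were compared for the named genes and probe sets only, and there no sign of a called value reversed. Of 51 named genes and probe sets called in open flowers, 18 were kept in every alternative. The call ended for 33 without replicate 3 of every group, for 20 by leaving out 1 array and for 15 by dropping the block. The causes were not tested. Arrays near background limit the dim genes: for 102 of the 525 lower calls all 3 OE arrays lay at or below the 40th percentile.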

Other observations

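Auxin genes formed a further group, chosen after their values were seen. Of 5 tested members of the Aux/IAA, GH3 and SAUR families, 2 were lower in OE than in KO open flowers and none was higher, beside 3.47% lower among all tested probe sets, with a median log2 difference of -0.25. GH3.3, whose product conjugates auxin with amino acids, read 599, 349 and 485 in OE and 1137, 764 and 1284 in KO (-1.13 ± 0.21, adjusted p = 0.0056). WES1, of the same enzyme family, read 637, 633 and 499.6 against 1122, 756 and 925 (-0.64 ± 0.17, adjusted p = 0.039). Leaving out the KO array of replicate 3 ended the call of GH3.3 (adjusted p = 0.058). The call of WES1 ended without any 1 of 5 of the 6 arrays (adjusted p = 0.068 to 0.17).

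The bud comparison named 7 genes. CP1, a cysteine protease gene, was higher in OE at 1247, 1093 and 1087 against 423, 374 and 374 (1.51 ± 0.15, adjusted p = 8.5e-05). AT3G13610, which encodes the feruloyl-CoA hydroxylase of coumarin synthesis, was lower at 47.3, 51.2 and 4.46 against 401, 271 and 307 (-2.93 ± 0.42, adjusted p = 0.0019), and in open flowers its difference was -1.14 ± 0.42 (adjusted p = 0.11). AT1G33700, AT2G05540, AT1G05340 and AT3G60780 had -2.47, -2.31, -2.15 and -1.80 in buds, and AT5G59130 had 0.79. Of these 7 genes, CP1 kept its call in every alternative.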
